A study of Danio rerio with 24 samples.

Results

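The hypoxia response genes described here are 10 zebrafish genes: hif1ab, egln3, vegfaa, vegfab, igfbp1a, igfbp1b, ankrd37, pfkfb3, ldha and epoa. They were taken from the gene count table by symbol. All 10 were in the table, each once and each protein-coding, among 37660 genes in all, and all 10 had enough counts to be tested among 27010 tested genes. They include a subunit of the hypoxia-inducible factor (HIF), its feedback regulator, secreted growth factors and binding proteins, and enzymes of glycolysis.

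HIF is a transcription factor made of an oxygen-sensitive alpha subunit and a stable partner, Arnt. With oxygen present, prolyl hydroxylases of the Egln family modify the alpha subunit, the Vhl protein binds it and it is degraded. When oxygen is short the alpha subunit builds up, largely without a change in its own transcript, and HIF turns on genes for anaerobic glycolysis, vessel growth, red cell production and restraint of growth. Several of these genes also respond to signals other than oxygen. In zebrafish embryos igfbp1a is a widely used transcript marker of hypoxia.

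RNA was measured by poly(A) RNA-seq in 24 libraries from whole embryos labelled 3 days post fertilisation, each library from a pool of about 50 embryos. The 6 groups held 4 libraries each. They were labelled knockout (KO) embryos with DMSO, the solvent, with 0.5 µM ML233 for 3 h and with 0.5 µM ML233 for 24 h, and wild-type (WT) embryos with the same 3 treatments. ML233 is a small molecule described as an agonist of the apelin receptor. The labels gave the KO line in different words: an apelin receptor knockout in titles, an aplnr (a/b) mutant made by CRISPR on the AB strain in the growth protocol, and an apelin knockout in the design text. WT embryos came from the same grandparents, per the labels. The DMSO groups carried a time of 0 h, so an effect of ML233 and an effect of the hours to collection cannot be told apart. Each library was a pool of whole embryos, so fewer cells of a type and less RNA per cell cannot be told apart either.

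Library totals lay between 29.0 M and 43.4 M counts (M, SI prefix mega). The apelin receptor transcripts were lower in all 12 KO libraries than in all 12 WT libraries, at 9.7 to 17.7 CPM in KO, against 21.4 to 27.0 CPM in WT for aplnrb, and at 13.3 to 21.3 CPM in KO, against 23.3 to 25.8 CPM in WT for aplnra. All 3 tested apelin pathway genes, aplnra, aplnrb and apln, were lower in KO on average, at an edgeR adjusted p under 0.05, which is what called means below. On that average 6.29% of all tested genes were called lower. CPM stands for counts per M counts, with library sizes scaled by the TMM method. On the first principal component over all tested genes, which held 41.6% of the variance, 6 KO libraries stood apart from the other 6, at 37.5 to 143.2 against -47.5 to -27.9: KO DMSO replicates 2 and 4, KO 3 h replicates 3 and 4, and KO 24 h replicates 2 and 4. The second component, with 17.3%, set WT replicates 3 and 4 of every treatment, which lay at -5.6 to 43.4 on the first, apart from WT replicates 1 and 2. The labels gave no batch for either split, and both touch the genes below, so averaged values of the 10 genes and counts of the gene lists are also given without those libraries. Both splits were read from the expression of all tested genes, the 10 among them. The subsets therefore hold libraries chosen to be alike, and their p-values may be too small.

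Per kb of gene model, the 10 genes spanned a wide range of levels. ldha was highest at 165 ± 11.3 CPM per kb in KO and 203 ± 25 in WT (SD, n = 12 each). Next in WT came hif1ab at 44.4 ± 5.97 in KO and 39.2 ± 3.83 in WT, then igfbp1a at 74.5 ± 47.3 in KO and 18.9 ± 2.34 in WT. Thus igfbp1a had the second-highest mean in KO and the third-highest in WT. Within WT the levels of pfkfb3 (19.1 ± 8.86 in KO, 7.18 ± 0.735 in WT) and vegfab (7.36 ± 0.607 in KO, 6.69 ± 0.361 in WT) did not differ from each other beyond their spread. The levels of igfbp1b (28.6 ± 19.1 in KO, 5.33 ± 3.25 in WT) and vegfaa (6.15 ± 1.71 in KO, 4.82 ± 0.359 in WT) also overlapped each other within WT. The lowest were egln3 (4.81 ± 3.55 in KO, 1.65 ± 0.446 in WT), ankrd37 (1.58 ± 0.853 in KO, 1.15 ± 0.299 in WT) and epoa (0.431 ± 0.127 in KO, 0.464 ± 0.113 in WT), all in CPM per kb. Mean counts per library ran from 37.38 for epoa and 50.25 for ankrd37 to 13840 for ldha, so the 2 lowest genes carry the most counting error.

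The first question was whether these genes differed between KO and WT embryos. Averaged over the 3 treatments, 5 of 10 were higher in KO, namely igfbp1b, igfbp1a, egln3, pfkfb3 and vegfab, and 1 of 10, ldha, was lower (edgeR quasi-likelihood test, Benjamini-Hochberg adjusted p under 0.05 over all tested genes). Over all tested genes 15.7% were called in that comparison, 9.39% higher and 6.29% lower. The median log2 fold change of the 10 genes was 0.40, against -0.0072 over all tested genes. The average counts libraries of the 3 treatments as independent, which the labels do not show, so its p-values may be too small. Within single treatments 0 of 10 genes were called by edgeR in DMSO, at 3 h or at 24 h, where 0.148%, 0.148% and 0.459% of all tested genes were called. At an unadjusted p under 0.05, 5 of the 10 passed in each treatment, against 10.7% of all tested genes in DMSO, 12% at 3 h and 14.6% at 24 h. DESeq2 called 3 of the 10 in each treatment: igfbp1a, igfbp1b and pfkfb3 in DMSO and at 24 h, and igfbp1a, pfkfb3 and vegfab at 3 h. Of the same 27010 tested genes DESeq2 called 394 in DMSO, 506 at 3 h and 756 at 24 h. Leaving out KO 24 h replicate 3 took the edgeR count at 24 h to 3 of 10, the same 3 genes that DESeq2 called there, and the count over the whole table to 796 genes, against 124 with all libraries.

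**Figure D1:**
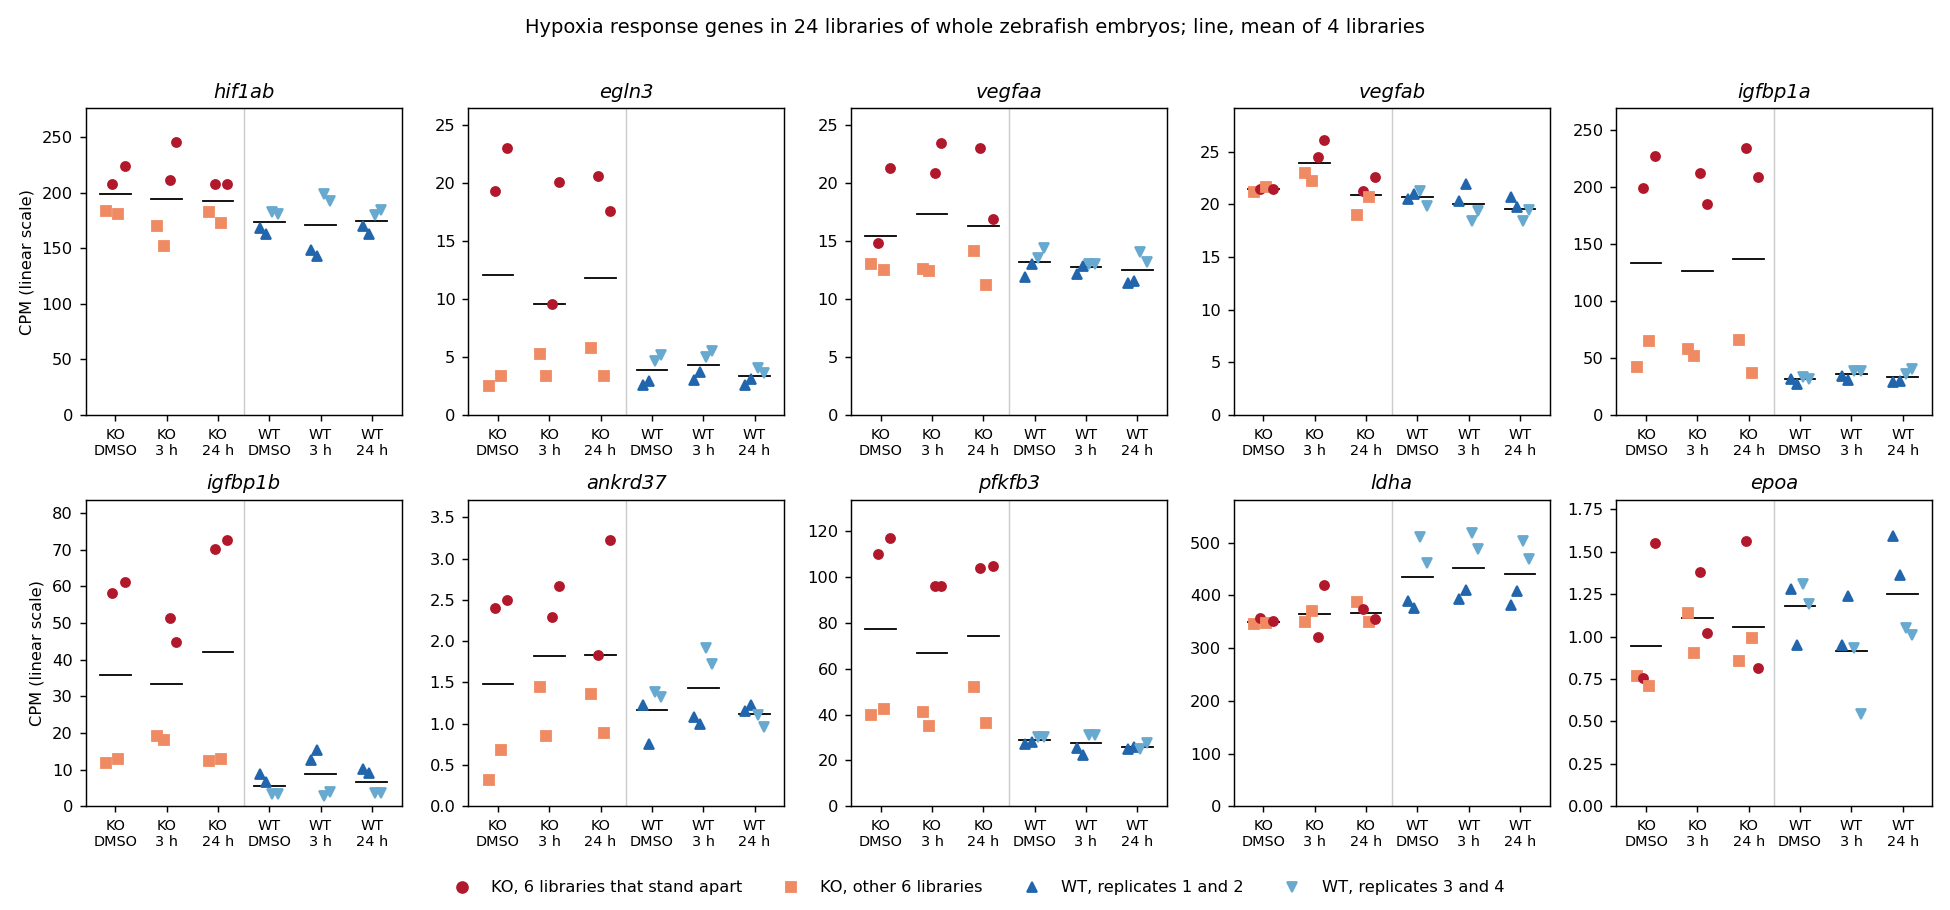
CPM of each hypoxia response gene on a linear scale, 1 panel per gene and 1 point per library, with KO groups left of WT groups and a line at the mean of 4 libraries. Circles mark the 6 KO libraries that stand apart on all genes; they hold the highest values of igfbp1a (185 to 234 CPM), igfbp1b and pfkfb3, while squares, the other 6 KO libraries, lie nearer to WT.

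The insulin-like growth factor binding proteins showed the largest differences. igfbp1a (ENSDARG00000099351, chromosome 20, 6808774 to 6812688, minus strand, GRCz11) encodes a secreted protein that binds insulin-like growth factors and limits their action. It had 41.8, 199, 64.8 and 227 CPM in KO DMSO replicates 1 to 4, against 31.9, 27.2, 33.6 and 31.8 CPM in WT DMSO. At 3 h of ML233 it had 57.8, 51.3, 212 and 185 CPM in KO, against 34.4, 30.6, 38.5 and 38.6 CPM in WT. At 24 h it had 65.9, 234, 36.8 and 209 CPM in KO, against 28.9, 29.7, 36.1 and 40.0 CPM in WT. KO libraries lay above WT without overlap in DMSO and at 3 h, and at 24 h KO replicate 3 fell within the WT range. Of all tested genes 7.08% had no overlap between KO and WT in DMSO, 6.82% at 3 h and 5.86% at 24 h, in either direction, and of the 10 genes 4, 4 and 2. In each KO group 2 libraries were far above the other 2, and the WT libraries stayed close together. Group means of igfbp1a in KO were 133 ± 93.5, 127 ± 84.0 and 137 ± 99.7 CPM in DMSO, at 3 h and at 24 h, and 31.1 ± 2.75, 35.5 ± 3.82 and 33.7 ± 5.32 CPM in WT (SD, n = 4 each). The averaged log2 fold change was 1.98 with an SE of 0.32 (edgeR adjusted p = 0.00038), a 3.95-fold higher level in KO. Single-treatment log2 fold changes of igfbp1a were 2.10 in DMSO (edgeR adjusted p = 0.13), 1.83 at 3 h (adjusted p = 0.163) and 2.02 at 24 h (adjusted p = 0.0941).

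Without the 6 KO libraries that stand apart, igfbp1a was still called higher in KO on average, with a log2 fold change of 0.66 (SE 0.12, edgeR adjusted p = 0.00544). Against WT replicates 1 and 2 alone it was 2.12 (edgeR adjusted p = 0.0293). The call held in both subsets, but these were picked on the same data, so their p-values are descriptions.

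igfbp1b (ENSDARG00000038666, chromosome 2, 124433 to 127945, minus strand, GRCz11) is the second zebrafish copy of the same ancestral gene. It had 11.7, 58.1, 12.9 and 61.1 CPM in KO DMSO, against 8.76, 6.75, 3.26 and 3.29 CPM in WT DMSO. At 3 h it had 19.3, 18.2, 51.3 and 44.9 CPM in KO, against 12.5, 15.4, 2.82 and 3.98 CPM in WT. At 24 h it had 12.4, 70.2, 12.9 and 72.6 CPM in KO, against 10.1, 9.18, 3.53 and 3.51 CPM in WT. Every KO library lay above every WT library of its own treatment, although the lowest KO value, 11.7 CPM, was under the highest WT value, 15.4 CPM. Within WT igfbp1b also split, in every treatment: 6.75 to 15.4 CPM in replicates 1 and 2 and 2.82 to 3.98 CPM in replicates 3 and 4. Its averaged log2 fold change was 2.44 with an SE of 0.41 (edgeR adjusted p = 0.000587), a 5.42-fold higher level in KO and the highest of the 10 genes. By treatment the igfbp1b values were 2.70 in DMSO, 1.94 at 3 h and 2.67 at 24 h (edgeR adjusted p = 0.135, 0.256 and 0.0901). Without the 6 KO libraries that stand apart, the igfbp1b value was 1.06 and was not called (edgeR adjusted p = 0.0863). Against WT replicates 1 and 2 alone it was 1.86 and was called (edgeR adjusted p = 0.0444).

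The pair of igfbp1 genes moved together between KO libraries but not between WT libraries. The ratio of igfbp1a to igfbp1b CPM had a median of 3.57 (2.88 to 4.13) in the 6 KO libraries that stand apart and 3.28 (2.82 to 5.29) in the other 6. In WT the ratio was 3.05 (1.99 to 4.03) in replicates 1 and 2 and 10.3 (9.66 to 13.6) in replicates 3 and 4. The higher ratio in WT replicates 3 and 4 came with low igfbp1b in every treatment. At 3 h and at 24 h igfbp1a was also higher in those replicates than in replicates 1 and 2, and in DMSO it overlapped between them. The share of reads that could be placed on either copy is not known from counts.

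**Figure D2:**
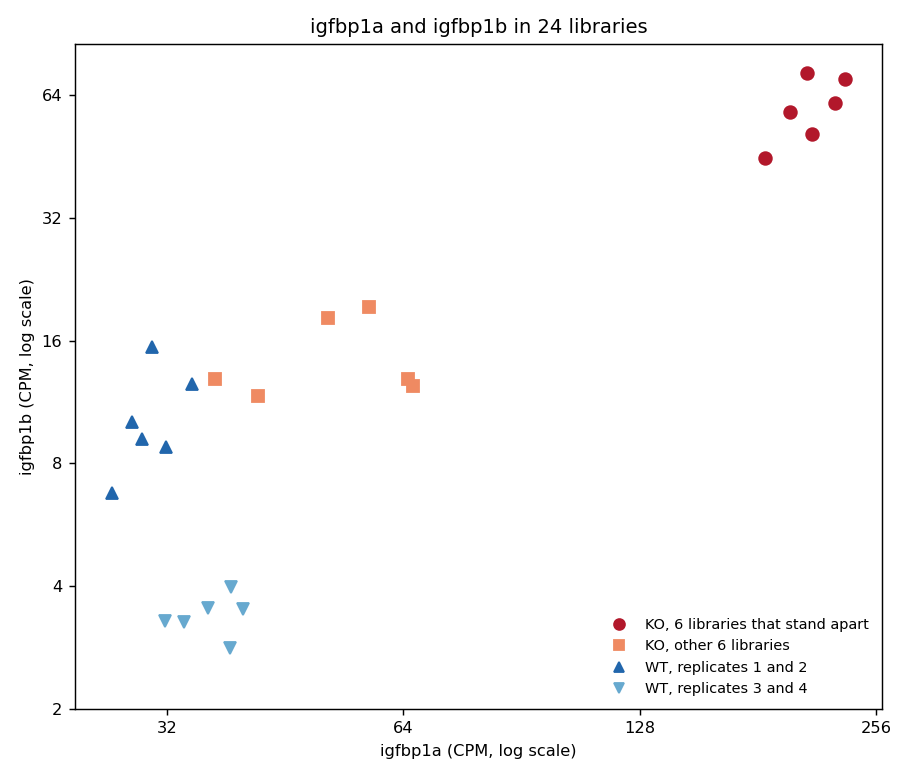
CPM of igfbp1a (horizontal) and igfbp1b (vertical), both on log scales, 1 point per library. The 6 KO libraries that stand apart lie at the upper right, the other KO libraries in the middle, and WT libraries form a lower (2.82 to 3.98 CPM of igfbp1b, replicates 3 and 4) and an upper cluster.

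Among glycolytic genes the activator and the end enzyme differed in opposite directions. pfkfb3 (ENSDARG00000001953, chromosome 4, 25472505 to 25485404, minus strand, GRCz11) encodes a kinase that makes fructose-2,6-bisphosphate, the strongest activator of the committed step of glycolysis. It had 39.9, 110, 42.5 and 117 CPM in KO DMSO, against 27.0, 28.1, 30.3 and 30.3 CPM in WT DMSO. At 3 h it had 41.3, 35.0, 96.0 and 96.2 CPM in KO, against 25.4, 22.4, 31.3 and 31.0 CPM in WT. At 24 h it had 52.1, 104, 36.2 and 105 CPM in KO, against 24.9, 26.0, 25.2 and 27.5 CPM in WT. No KO library of any treatment reached down to a WT library: 35.0 CPM was the lowest of the 12 in KO and 31.3 CPM the highest of the 12 in WT. pfkfb3 was the only one of the 10 genes of which this was true. It held for 0.378% of all tested genes, and the reverse, with KO below WT, for 0.222%. Its averaged log2 fold change was 1.41 with an SE of 0.22 (edgeR adjusted p = 0.000252). Single-treatment log2 fold changes of pfkfb3 were 1.42 in DMSO, 1.28 at 3 h and 1.52 at 24 h (edgeR adjusted p = 0.13, 0.147 and 0.0723). Without the 6 KO libraries that stand apart it was 0.57 and still called (SE 0.083, edgeR adjusted p = 0.00111). That the other 6 KO libraries were all above the 12 WT libraries follows from the 12 being so, and 0.674% of all tested genes had those 6 above WT. Set against WT replicates 1 and 2 alone, the value was 1.51 (edgeR adjusted p = 0.0245).

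ldha (ENSDARG00000101251, chromosome 25, 25123385 to 25131755, plus strand, GRCz11) encodes the lactate dehydrogenase subunit that favours making lactate from pyruvate. It had 345, 357, 347 and 351 CPM in KO DMSO, against 390, 377, 511 and 462 CPM in WT DMSO. At 3 h it had 350, 371, 322 and 419 CPM in KO, against 393, 410, 519 and 488 CPM in WT. At 24 h it had 387, 374, 349 and 355 CPM in KO, against 382, 409, 504 and 469 CPM in WT. KO lay below WT without overlap in DMSO, while single KO libraries reached into the WT range at 3 h and at 24 h. The averaged log2 fold change of ldha was -0.30 (SE 0.07, edgeR adjusted p = 0.00461), a level in KO of 0.814 times that in WT. ldha lay between 322 and 419 CPM over all KO libraries, whether they stand apart or not, and in WT it divided into 377 to 410 CPM in replicates 1 and 2 and 462 to 519 CPM in replicates 3 and 4. The value was -0.13 and not called when WT was limited to replicates 1 and 2 (edgeR adjusted p = 0.157). Without the 6 KO libraries that stand apart it was -0.32 and just missed the threshold (edgeR adjusted p = 0.0517).

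egln3 (ENSDARG00000032553, chromosome 17, 9912036 to 9936915, minus strand, GRCz11) encodes an oxygen-sensing prolyl hydroxylase that is itself a HIF target and so a feedback regulator. It had 2.49, 19.3, 3.33 and 23.0 CPM in KO DMSO, against 2.61, 2.93, 4.66 and 5.16 CPM in WT DMSO. At 3 h it had 5.24, 3.37, 9.59 and 20.1 CPM in KO, against 3.01, 3.72, 5.0 and 5.47 CPM in WT. At 24 h it had 5.74, 20.6, 3.32 and 17.6 CPM in KO, against 2.56, 3.11, 4.03 and 3.63 CPM in WT. The high values were those of the 6 KO libraries that stand apart, and the KO and WT ranges overlapped in every treatment. The averaged log2 fold change of egln3 was 1.54 (SE 0.37, edgeR adjusted p = 0.00782). Without those 6 libraries it was 0.0067 (edgeR adjusted p = 0.987), so the averaged difference was near 0 over the other KO libraries. When WT was limited to replicates 1 and 2 it was 1.89 (edgeR adjusted p = 0.0585).

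hif1ab (ENSDARG00000034293, chromosome 20, 20326611 to 20355577, minus strand, GRCz11) encodes a HIF alpha subunit. It lay between 152 and 246 CPM in KO, with a median of 196, and between 143 and 199 CPM in WT, with a median of 175. Its averaged log2 fold change was 0.18 with an SE of 0.08 (edgeR adjusted p = 0.118), not called. It was -0.0038 without the 6 KO libraries that stand apart, and 0.30 with WT limited to replicates 1 and 2 (edgeR adjusted p = 0.0629). The highest hif1ab value in KO, 246 CPM, was in 3 h replicate 4.

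vegfaa (ENSDARG00000103542, chromosome 16, 4287542 to 4317879, minus strand, GRCz11) and vegfab (ENSDARG00000034700, chromosome 4, 5568688 to 5597802, minus strand, GRCz11) encode the zebrafish copies of vascular endothelial growth factor A, the main signal for vessel growth. vegfaa lay between 11.2 and 23.4 CPM in KO, with a median of 14.4, and between 11.4 and 14.4 CPM in WT, with a median of 13.0. Its 6 highest KO values, 14.8 to 23.4 CPM, were those of the libraries that stand apart. The averaged vegfaa log2 fold change of 0.35 (SE 0.12) narrowly missed the threshold (edgeR adjusted p = 0.0588) and was -0.03 without those libraries. With WT limited to replicates 1 and 2 the vegfaa value was 0.43 (edgeR adjusted p = 0.129).

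vegfab was nearly level across KO DMSO, at 21.2, 21.5, 21.7 and 21.5 CPM, against 20.5, 21.0, 21.3 and 19.9 CPM in WT DMSO. At 3 h it had 23.0, 22.2, 24.5 and 26.1 CPM in KO, against 20.3, 21.9, 18.4 and 19.4 CPM in WT. At 24 h it had 19.0, 21.3, 20.7 and 22.6 CPM in KO, against 20.7, 19.8, 18.4 and 19.5 CPM in WT. KO and WT were apart at 3 h, where the gap was small, and overlapped in DMSO and at 24 h. The averaged log2 fold change of vegfab was 0.14 (SE 0.04, edgeR adjusted p = 0.0435), close to the threshold. The call was lost without the filter on low counts (edgeR adjusted p = 0.0734), in 17 of 24 fits that left out 1 library (0.0263 to 0.0996), with WT limited to replicates 1 and 2 (0.09, adjusted p = 0.276), and without the 6 KO libraries that stand apart (0.07, adjusted p = 0.397).

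The 2 lowest genes did not differ beyond their spread. ankrd37 (ENSDARG00000056376, chromosome 1, 17695426 to 17698773, plus strand, GRCz11), a HIF target in mammals that encodes an ankyrin repeat protein, lay between 0.319 and 3.23 CPM in KO and between 0.759 and 1.92 CPM in WT. Its averaged log2 fold change was 0.46 with an SE of 0.28 (edgeR adjusted p = 0.306), -0.51 (adjusted p = 0.20) without the 6 KO libraries that stand apart, and 0.66 (adjusted p = 0.281) with WT limited to replicates 1 and 2. epoa (ENSDARG00000055163, chromosome 7, 21890473 to 21918432, minus strand, GRCz11) encodes erythropoietin, the hormone that drives red cell production. It lay between 0.711 and 1.56 CPM in KO and between 0.541 and 1.59 CPM in WT, from 17 to 61 counts per library. The averaged epoa log2 fold change was -0.10 with an SE of 0.17 (edgeR adjusted p = 0.761), and its highest values fell in libraries of several groups. epoa was at -0.33 (edgeR adjusted p = 0.283) without the 6 KO libraries that stand apart, and with WT limited to replicates 1 and 2 at -0.24 (adjusted p = 0.43). ankrd37 overlaps si:dkey-256e7.8 and epoa overlaps ufsp1, each on the opposite strand, and whether the counting used strand is not given in the sources used here, so reads of those partners may be included.

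**Figure D3:**
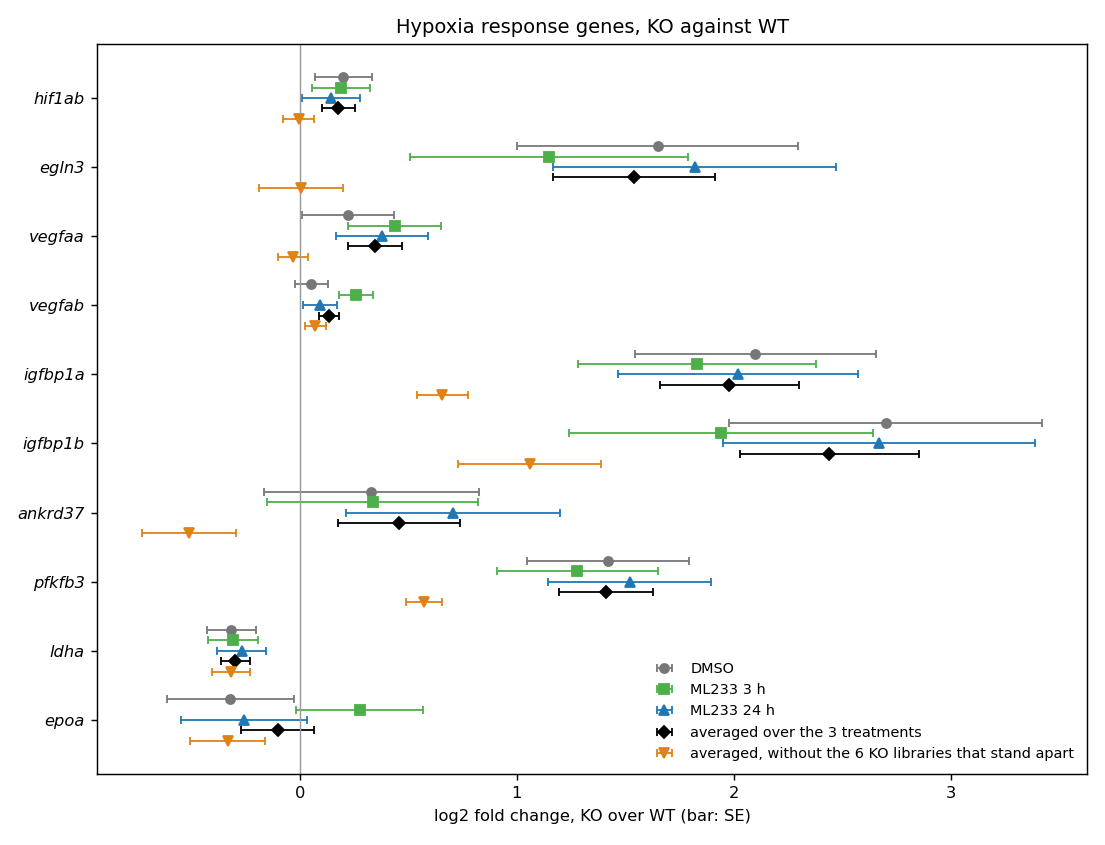
Log2 fold change of KO over WT with its SE for each hypoxia response gene, in DMSO, at 3 h and at 24 h of ML233, averaged, and averaged without the 6 KO libraries that stand apart. igfbp1a, igfbp1b, pfkfb3 and egln3 have averages from 1.41 to 2.44; without those libraries igfbp1a is at 0.66, pfkfb3 at 0.57 and egln3 at 0.0067.

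Within KO, 7 of the 10 genes had their 6 highest values in the 6 libraries that stand apart: hif1ab, egln3, vegfaa, igfbp1a, igfbp1b, ankrd37 and pfkfb3. The same was true of 16.3% of all tested genes, and 16.4% had their 6 lowest values there. Those libraries were picked out on the expression of all genes, so this is a description of them. ldha, vegfab and epoa did not share that split. Across the 24 libraries igfbp1a and pfkfb3 were the most alike pair, with Pearson's r = 0.98 of log2 CPM, and egln3 had r = 0.92 with each of them. igfbp1b and ldha ran opposite, with r = -0.76. epoa had r between -0.06 and 0.27 with the other 9. These values are descriptions, because the libraries fall into clusters that they share.

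The genes whose profile over the 24 libraries was most like that of a hypoxia response gene were searched among 16244 named protein-coding genes. For igfbp1a the closest was adma, which encodes adrenomedullin, with r = 0.99. For pfkfb3 they were CABZ01118001.1 and the gene ENSDARG00000016188, each with r = 0.986. CABZ01118001.1 was also second for igfbp1a, with r = 0.987. For igfbp1b they were pnpla3 (0.985) and timp4.3 (0.982), for egln3 mvp (0.969) and cldn5b (0.968), and for hif1ab plk3 (0.959) and atp1a1a.1 (0.95). Looser matches were sept9a (0.935) and sdc4 (0.931) for vegfaa, hacd2 (0.923) and zgc:77748 (0.92) for ldha, prkci (0.848) and ptbp1a (0.844) for ankrd37, and hsph1 (0.82) and tlr22 (0.785) for vegfab. The closest to epoa, ptgis, reached 0.548, and si:ch73-112l6.1 reached 0.54.

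Other genes of the HIF pathway were then read from the same fit, averaged over treatments. That average called 9.39% of all tested genes higher in KO and 6.29% lower. Of 15 tested HIF subunits and regulators, 3 were called higher in KO and 0 lower, with a list median of 0.16. They were the HIF alpha gene epas1a (log2 fold change 0.33, edgeR adjusted p = 0.00164), the Vhl-like gene vhll (0.43, adjusted p = 0.0289) and the HIF alpha-like gene hif1al (0.50, adjusted p = 0.048). epas1a lay between 85.3 and 118 CPM in KO and between 69.8 and 90 CPM in WT. hif1al was at 338 to 370 CPM in the 6 KO libraries that stand apart and at 160 to 200 CPM in the other 6, against 151 to 226 CPM in WT. Not called were hif1aa (0.04, adjusted p = 0.826), epas1b (0.12, adjusted p = 0.68), the prolyl hydroxylase gene egln1a (0.18, adjusted p = 0.403) and vhl (0.17, adjusted p = 0.296). The hif1al call was lost in 18 of 24 fits that left out 1 library and the vhll call in 9 of 24. Without the 6 KO libraries that stand apart, 0 of the 15 were called, and hif1al was at -0.09. Over all tested genes 1.79% were called higher and 2.28% lower in that subset. With WT limited to replicates 1 and 2, 1 of the 15 was called higher, where 4.11% of all tested genes were called higher and 1.71% lower.

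Of 23 tested further HIF targets, 5 were called higher in KO and 1 lower, with a median of 0.14. Among all tested genes 9.39% were called higher and 6.29% lower. adma had 2.37 (SE 0.38, edgeR adjusted p = 0.00035), and the mitochondrial protein gene higd1a had 0.76 (adjusted p = 0.00153). adma was at 59.7 to 86.2 CPM in the 6 KO libraries that stand apart and 9.51 to 19.9 CPM in the other 6, against 6.34 to 8.94 CPM in WT. The other 3 called higher were ddit4, which encodes an inhibitor of growth signalling (0.76, adjusted p = 0.0245), ero1a, which encodes an oxidase of the endoplasmic reticulum (0.93, adjusted p = 0.0296), and the heme oxygenase gene hmox1a (0.52, adjusted p = 0.0484). The 1 called lower was the carbonic anhydrase gene ca9 (-0.46, adjusted p = 0.0192), at 1.19 to 2.34 CPM in the KO libraries that stand apart and 2.42 to 3.37 CPM in the other 6, against 2.76 to 3.80 CPM in WT. The glucose transporter gene slc2a1a was not called (-0.26, adjusted p = 0.784). slc2a1a was at 0.627 to 1.96 CPM in the KO libraries that stand apart and 7.07 to 12.5 CPM in the other 6, against 2.78 to 10.1 CPM in WT. The HIF target genes thus did not run in 1 direction in the libraries that stand apart: adma was high there, and slc2a1a and ca9 low. Without those libraries 1 of the 23 was called higher and 1 lower, and ddit4 was at -0.11. With WT limited to replicates 1 and 2, 3 were called higher and 0 lower. Over all tested genes 1.79% and 4.11% were called higher in those subsets, in that order, and 2.28% and 1.71% lower. Leaving out KO DMSO replicate 4, KO 3 h replicate 3 or 4, or KO 24 h replicate 4 took the count called to 3.

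Of 33 tested genes of glycolysis and pyruvate use, 4 were called higher in KO and 3 lower, with a median of -0.031. The same average called 9.39% of all tested genes higher and 6.29% lower. Higher were the hexokinase gene hk2 (1.00, edgeR adjusted p = 0.00375), the lactate dehydrogenase gene ldhbb (0.67, adjusted p = 0.00429), pdk2b, which encodes a kinase that inhibits pyruvate dehydrogenase (0.97, adjusted p = 0.0072), and pfkfb4b (0.85, adjusted p = 0.00899). Lower were the isomerase gene gpib (-0.40, adjusted p = 1.47e-05), the aldolase gene aldoab (-0.29, adjusted p = 0.00289) and the mutase gene pgam1b (-0.27, adjusted p = 0.0075). gpib was also called in single treatments, at -0.44 in DMSO (edgeR adjusted p = 0.0301) and -0.45 at 3 h (adjusted p = 0.0297). Without the 6 KO libraries that stand apart, 0 glycolysis genes were called higher and 4 lower, where 1.79% of all tested genes were called higher and 2.28% lower. With WT limited to replicates 1 and 2, 2 were called higher and 1 lower, where 4.11% of all tested genes were called higher and 1.71% lower.

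Of 11 tested further VEGF ligands and receptors 0 were called, with a median of 0.027, and the receptor gene kdrl was at 0.09 (edgeR adjusted p = 0.16). Of 14 tested further insulin-like growth factor genes 2 were called higher, the ligand gene igf2b (0.75, adjusted p = 0.00335) and the binding protein gene igfbp6b (0.58, adjusted p = 0.00604), with a median of 0.09. Of all tested genes 9.39% were called higher and 6.29% lower in that average. Of 5 tested genes of erythropoietin signalling 0 were called, with a median of 0.065, and the receptor gene epor was at -0.21 (edgeR adjusted p = 0.553). At an unadjusted p under 0.05 edgeR had 2 VEGF genes and 0 erythropoietin genes, against 29.2% of all tested genes, and DESeq2 called 0 of either list. Of 14 insulin-like growth factor genes 1 was called higher and 1 lower without the 6 KO libraries that stand apart, and 0 of 15 tested were called with WT limited to replicates 1 and 2. 0 genes of the VEGF and erythropoietin lists were called in either subset. Over all tested genes 1.79% and 4.11% were called higher in those subsets, in that order, and 2.28% and 1.71% lower.

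**Figure D4:**
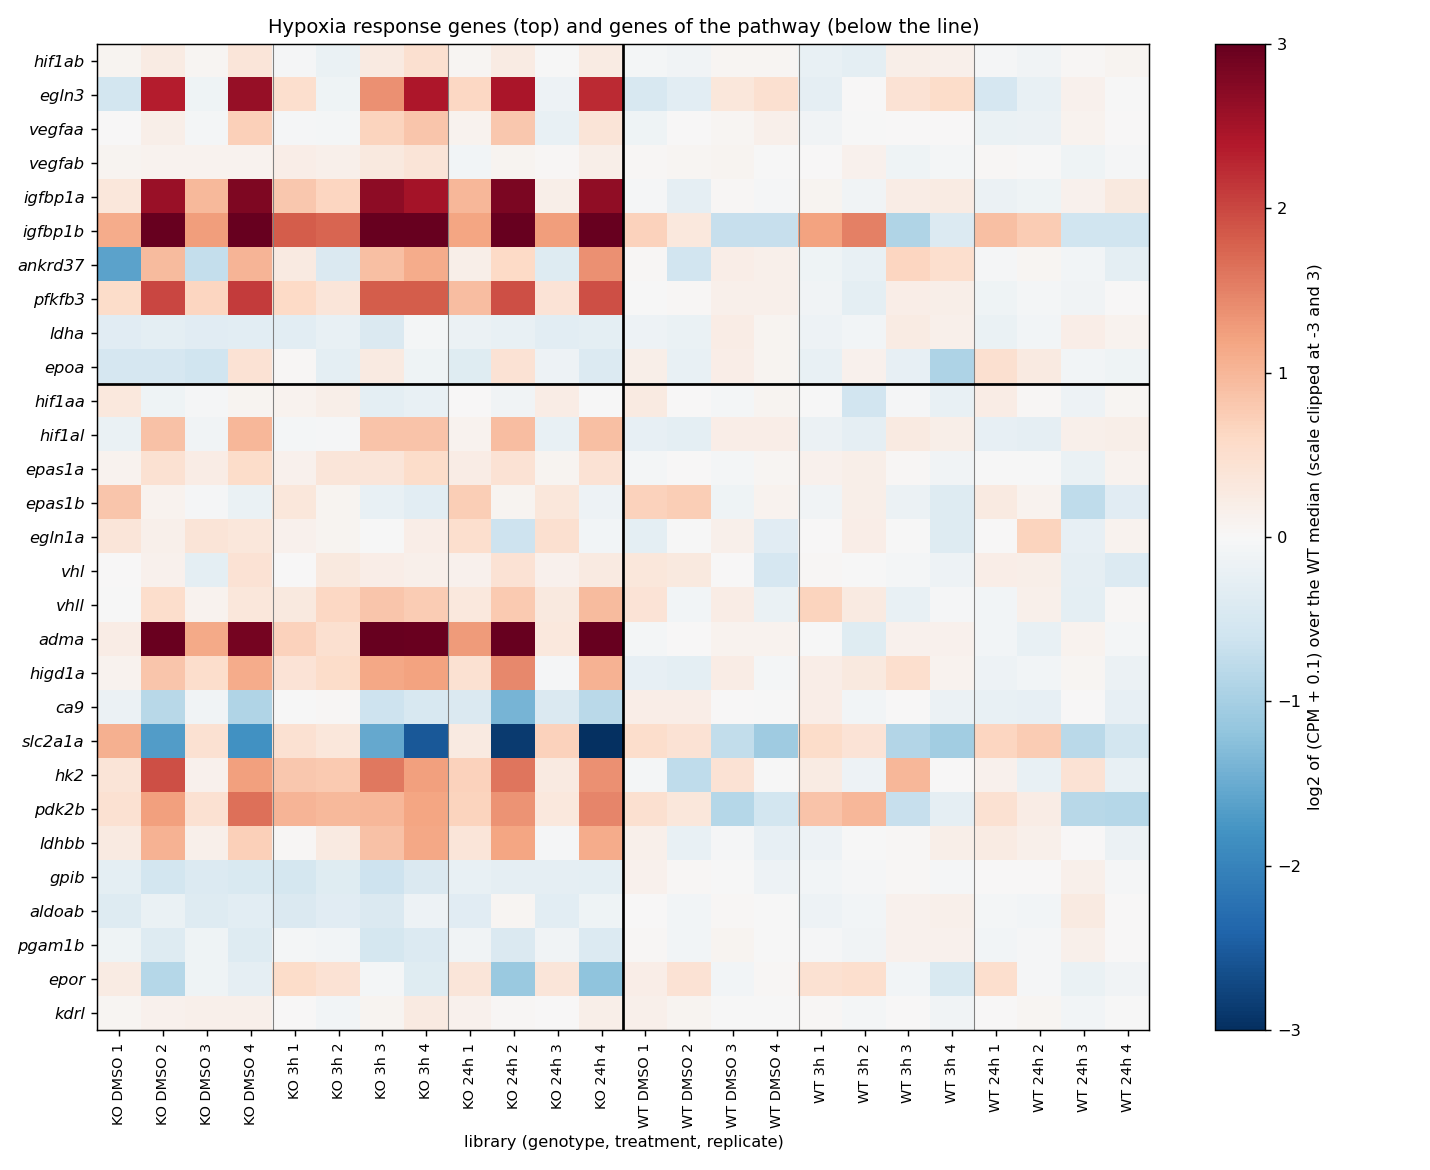
Log2 of (CPM + 0.1) over the WT median for the 10 hypoxia response genes (above the line) and 19 pathway genes (below it) in 24 libraries, KO left of WT. In the 6 KO libraries that stand apart adma is far above the WT median and slc2a1a is below it.

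Genes of injury and inflammation were higher in KO, most of them in both sets of KO libraries. The list of 11 genes has 12 entries in the table, because mmp13a has 2, and counts here are of entries. Of 11 tested entries, 11 were called higher in KO on average (median log2 fold change 4.0). Among them were the chemokine gene cxcl18b (3.88, edgeR adjusted p = 1.52e-06) and the matrix protease gene mmp9 (3.96, adjusted p = 2.22e-06). The summed CPM of that list was 507 to 1180 in the 6 KO libraries that stand apart and 118 to 506 in the other 6, against 47.6 to 57.4 in WT replicates 1 and 2 and 80.8 to 95.4 in WT replicates 3 and 4. Without the KO libraries that stand apart, 10 of 11 were still called higher (median 2.9), and with WT limited to replicates 1 and 2, 12 of 12 (median 4.1). mmp9 was at 148 to 418 CPM and 31.1 to 205 CPM in those KO sets, which overlapped, against 7.97 to 15.3 CPM in WT. For 7 macrophage and neutrophil markers in the table the sum was 87.2 to 128 CPM and 47.8 to 58.0 CPM in those KO sets, against 31.2 to 51.4 CPM in WT, and 4 of 5 tested were called higher, 2 of 5 without the KO libraries that stand apart and 1 of 7 with WT limited to replicates 1 and 2. For 8 liver markers the sum was 6950 to 10300 CPM and 5550 to 6350 CPM in those KO sets, against 5620 to 7320 CPM in WT, with 3 of 8 called higher. The liver markers went different ways. KO medians were above WT for cp (300 against 133 CPM), fgb (476 against 205), fga (636 against 274) and, slightly, apoa2 (3270 against 3170). They were below WT for fabp10a, ttr, tfa and serpina1. The averaged comparison called 9.39% of all tested genes higher and 6.29% lower. Without the KO libraries that stand apart and with WT limited to replicates 1 and 2, 2 and 1 liver markers were called higher and 1 and 1 lower. Over all tested genes 1.79% and 4.11% were called higher in those subsets, in that order, and 2.28% and 1.71% lower. The part of these differences in the levels of igfbp1a, igfbp1b, pfkfb3 and egln3 was not tested.

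Sums of endothelial and neuronal markers followed the split of the KO libraries, in opposite directions. The sums of red cell and endothelial markers followed the split of the WT libraries. Calls below are of the averaged comparison, where 9.39% of all tested genes were called higher and 6.29% lower, unless a subset is named. For 8 endothelial markers the sum was 150 to 169 CPM in the KO libraries that stand apart and 116 to 130 CPM in the other 6. It was 126 to 129 CPM in WT replicates 1 and 2 and 136 to 142 CPM in WT replicates 3 and 4. Of these markers 0 of 8 were called, in the subsets too. KO medians were above WT for cdh5, pecam1 (21.2 against 16 CPM), fli1a, egfl7 and etv2. They were below WT for tie1 (1.9 against 3.38 CPM), tek and esama. For 6 neuronal markers the sum was 1040 to 1150 CPM and 1520 to 1620 CPM in those KO sets, against 1580 to 1660 CPM in WT. Of the neuronal markers 2 of 6 were called lower, and 0 of 6 in either subset. For 7 muscle markers it was 9110 to 12600 CPM in KO, against 9890 to 13400 CPM in WT, with 3 of 6 tested called lower, 2 of 6 without the KO libraries that stand apart and 0 of 7 with WT limited to replicates 1 and 2. The 7 red cell markers in the table, which bear on epoa, summed to 611 to 1100 CPM in KO, against 406 to 486 CPM in WT replicates 1 and 2 and 1080 to 1460 CPM in WT replicates 3 and 4. Of 6 red cell markers tested 1 was called higher and 1 lower. Without the KO libraries that stand apart 0 of 5 were called, and with WT limited to replicates 1 and 2, 2 of 6 were called higher. Over all tested genes 1.79% and 4.11% were called higher in those subsets, in that order, and 2.28% and 1.71% lower. alas2 was at 0 in every library, and hbbe3 was at 0 in WT replicates 1 and 2. Like ldha and igfbp1b, the red cell and endothelial sums thus differed between the WT replicates.

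The second question was whether ML233 changed these genes. In KO embryos 0 of 10 were called at 3 h or at 24 h against KO DMSO, and in WT embryos 0 of 10 at 3 h or at 24 h against WT DMSO. By edgeR 0 genes of the whole table were called in these 4 comparisons (0%), and 0 of the 10 had an unadjusted p under 0.05. Of all tested genes 409 (1.51%) and 761 (2.82%) had one in KO at 3 h and 24 h, and 455 (1.68%) and 251 (0.929%) in WT. With shares this low, 0 of 10 says little about the 10 genes. By DESeq2, 2 genes of the table were called in WT at 3 h. The 3 h and 24 h comparisons share their DMSO libraries. These tests left the replicate number out, so the split within WT entered their error. The fit had no term for the split within KO either, so that split entered the error too. Values with that number as a block in WT at 3 h are given below.

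In KO at 3 h the log2 fold changes of ML233 over DMSO ran from -0.33 for egln3 (SE 0.63) to 0.30 for ankrd37 (SE 0.49), with a median of 0.016 over the 10 genes and 0.0019 over all genes. vegfab was the only one of the 10 whose 4 libraries at 3 h, 22.2 to 26.1 CPM, all lay above the 4 KO DMSO libraries, 21.2 to 21.7 CPM. Its log2 fold change was 0.16 with an SE of 0.08 (edgeR adjusted p = 1), and 1.58% of all tested genes had no overlap in that comparison. At 24 h in KO vegfab was at -0.04, and the 10 genes ran from -0.06 for pfkfb3 to 0.31 for ankrd37, with a median of 0.051 against -0.008 over all genes.

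In WT at 3 h the values ran from -0.37 for epoa (SE 0.29) to 0.65 for igfbp1b (SE 0.70), with a median of 0.017 over the 10 genes and 0.004 over all genes. In WT at 24 h they ran from -0.20 for egln3 to 0.25 for igfbp1b, with a median of -0.032 against -0.0014 over all genes. None of the 10 separated ML233 from DMSO libraries in WT, where 2.98% of all tested genes did at 3 h and 1.15% at 24 h. Whether replicate numbers paired the WT libraries was not settled. With the replicate number as a block 3 genes of the table were called in WT at 3 h, none of the 10 among them. With that block igfbp1b was at 0.51 (SE 0.18, unadjusted p = 0.0143, edgeR adjusted p = 0.432) and igfbp1a at 0.18 (adjusted p = 0.449) in WT at 3 h. Between same-numbered WT libraries igfbp1b was higher at 3 h than in DMSO for replicates 1, 2 and 4. The values were 12.5, 15.4 and 3.98 CPM against 8.76, 6.75 and 3.29 CPM. For replicate 3 igfbp1b was lower, at 2.82 against 3.26 CPM.

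**Figure D5:**
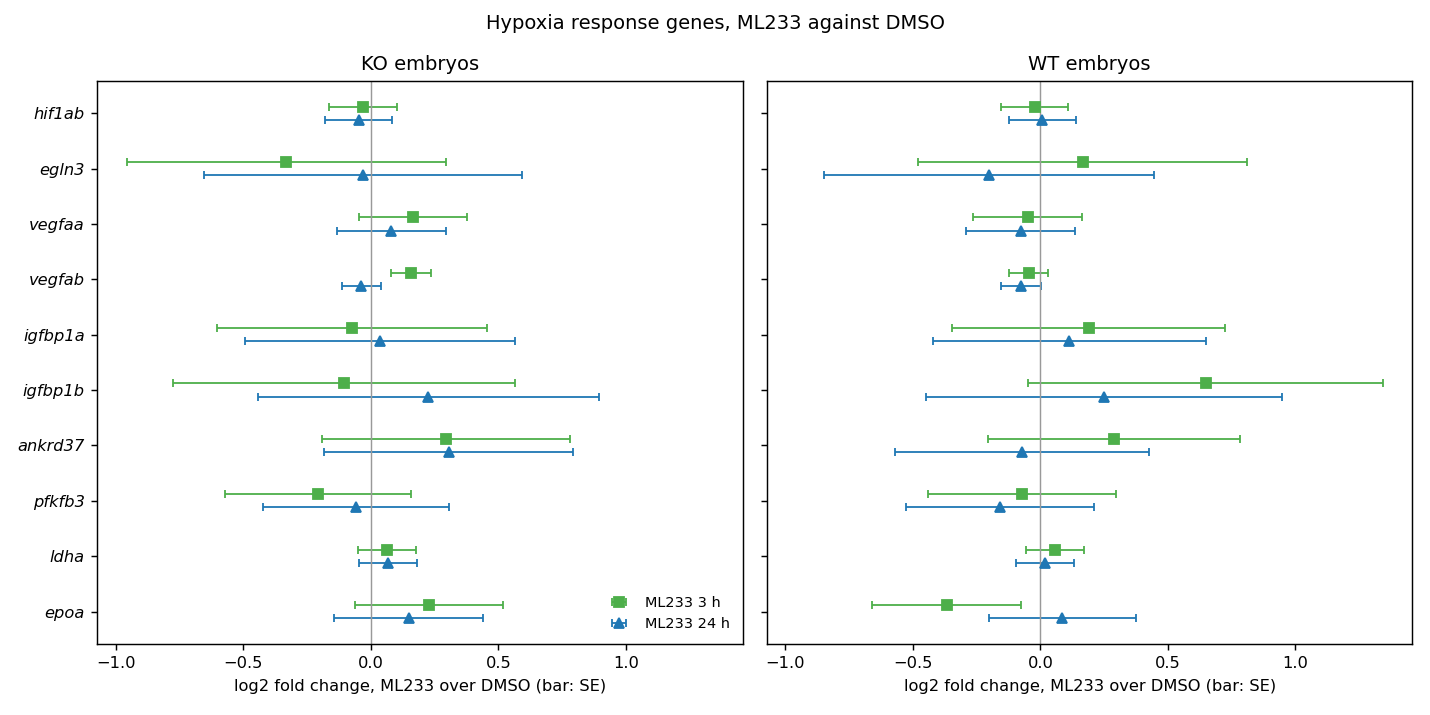
Log2 fold change of ML233 over DMSO with its SE for each hypoxia response gene, at 3 h (squares) and 24 h (triangles), in KO embryos (left) and WT embryos (right). Values lie between -0.37 and 0.65, and 0 of 10 genes were called in any of the 4 comparisons.

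Whether KO and WT embryos responded differently to ML233 was tested as an interaction. At 3 h 0 of 10 genes were called, with values from -0.75 for igfbp1b (SE 0.97) to 0.60 for epoa (SE 0.41). At 24 h 0 of 10 were called, with values from -0.08 for igfbp1a (SE 0.75) to 0.38 for ankrd37 (SE 0.70). By edgeR 0 genes of the whole table were called at either time (0%). An unadjusted p under 0.05 was reached by 251 genes (0.929% of all tested) at 3 h and 309 (1.14%) at 24 h. With SEs of 0.75 for igfbp1a and 0.96 for igfbp1b at 24 h, a difference in response of that size was not detectable over libraries so far apart. DESeq2 called 1 gene of the table in the 3 h interaction, none of the 10.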

How the data were processed

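Poly(A) RNA-seq counts of 24 whole-embryo libraries were analysed. The authors deposited 1 table of raw counts per gene with the gene coordinates. Per the submitters' processing notes, HISAT2 2.0.5, StringTie, featureCounts, R 4.3.2, DESeq2 1.42.1 and GRCz11 were used, without their roles. The strand setting of the counting is not given in the sources used here. Libraries were grouped by their labels, and biological quadruplicates of pooled embryos were stated. P-values rest on the spread between these samples, which the test takes as independent within a group. The source of the splits within KO and within WT is not known.

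The analysis used edgeR 4.0.16, with limma 3.58.1, under R 4.3.3. The table's 37660 genes were filtered with filterByExpr (minimum count 10) to 27010, and TMM scaling gave factors from 0.8332 to 1.083. The 24 libraries entered 1 quasi-likelihood fit whose only terms were the 6 groups, and contrasts were tested two-sided over all tested genes with Benjamini-Hochberg adjustment. Genes with an adjusted p under 0.05 are termed called. The SE of an edgeR log2 fold change was its absolute value divided by the square root of the quasi-likelihood F statistic. The alternatives were RLE size factors, no filter, DESeq2 1.42.0, fitting only the groups compared, the replicate number as a block, WT limited to replicates 1 and 2, KO limited to 6 libraries, and leaving out each library. The test was checked on simulated counts of 26784 genes, in which 200 genes differed between KO and WT. Of changes of 1 on the log2 scale it called 46% in DMSO and 90% averaged. Of changes of 2 it called 93% in DMSO and 100% averaged, with 10 false calls in each of these comparisons. The simulated libraries varied independently and held no split like those within KO and WT. Recovery and false calls in the real data may therefore differ from these values. No change was simulated for ML233, so recovery there was not measured; in WT at 3 h it made 0 calls. Between replicates, chi-square per degree of freedom was 4.15 to 135 over 36 pairs, so no library was counted as a repeat of another.

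Replicate numbers were checked for pairing by the correlation of deviations from group means. In WT 12 of 12 same-numbered pairs exceeded 0.1 (0.319 to 0.548). The split within WT followed the replicate numbers in every treatment, and it can raise these values without pairing. Pairs with different numbers were not compared, so whether the numbers paired WT libraries was not settled. In KO 8 of 12 same-numbered pairs exceeded 0.1 (-0.489 to 0.624), and between KO and WT 24 of 36 (-0.585 to 0.467). The numbers thus did not pair KO libraries with each other or with WT libraries.

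The genes and lists (HIF subunits and regulators, further HIF targets, glycolysis, VEGF, insulin-like growth factor, erythropoietin, apelin, injury, and cell markers) were chosen with earlier results of these data known, and support nothing on their own. An item of these lists is not reported here. Of each list the count called was given, with up to 3 called genes in each direction by smallest p and 8 preset genes; pfkfb4b, ero1a and hmox1a were named after their values were seen. Likeness was Pearson's r of log2 CPM over the libraries, searched among protein-coding genes whose log2 CPM averaged 1 or more, and the 2 closest per gene were named.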

Additional observations from a re-analysis of the deposited data

Results flagged for a closer look

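Over the 10 genes and 6 groups, 60 sets of 4 libraries were examined for a single library far from the other 3. 1 was found. Chance gives about 3 in 60 if the sets are independent and hold no split. The KO groups held a split and several of the genes ran together, so these counts cannot be compared. The 1 found was epoa in KO DMSO replicate 4, at 1.55 CPM, against 0.711 to 0.766 CPM in KO DMSO replicates 1, 2 and 3. The level of epoa in that library lay within the range of WT libraries, 0.541 to 1.59 CPM.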

How the results depend on the processing

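Counts of genes called moved with the tool and the libraries used. With DESeq2, KO over WT called 394 of 27010 genes in DMSO, 506 at 3 h and 756 at 24 h, with 3 of the 10 hypoxia response genes in each. By edgeR the counts were 40, 40 and 124 genes, with 0 of 10 in each. DESeq2 also called 2 genes in WT at 3 h of ML233 and 1 in the 3 h interaction. With only the groups compared fitted, KO over WT called 0 genes in DMSO, 0 at 3 h and 1 at 24 h. With WT limited to replicates 1 and 2 it called 0 genes in DMSO, 0 at 3 h, 0 at 24 h and 1597 averaged, with 3 of the 10. With KO limited to the 6 other libraries it called 8 genes at 3 h, 61 at 24 h (1 of the 10, pfkfb3 at 0.76, adjusted p = 0.0417) and 1110 averaged, with 2 of the 10. Leaving out 1 library gave 0 to 82 genes in DMSO, 0 to 154 at 3 h, 0 to 796 at 24 h (0 to 3 of the 10), 3046 to 5366 averaged (5 to 8 of the 10), and 0 to 1 in the 3 h interaction. With the replicate block, 3 genes were called in WT at 3 h. Whether KO and WT numbers pair was not settled. Under that block the averaged values were 1.83 for igfbp1a, 2.44 for igfbp1b, 1.34 for pfkfb3, 1.32 for egln3, -0.29 for ldha and 0.14 for vegfab. vegfaa was at 0.33 and passed (edgeR adjusted p = 0.0444). The block ended no call of the 10 genes.

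Some values changed sign between settings, and not all of these were near 0. With all libraries egln3 in KO over WT was at 1.65 in DMSO and 1.15 at 3 h. Averaged and without the 6 KO libraries that stand apart, the values that changed sign were hif1ab -0.0038, vegfaa -0.031, ankrd37 -0.51, hif1al -0.086, ddit4 -0.11, epor 0.17 and slc2a1a 0.54. Without those libraries egln3 was at -0.40 in DMSO and -0.013 at 3 h, and vegfaa at -0.054 and -0.041, for KO over WT, and ML233 over DMSO in KO was 0.56 for egln3 at 3 h and 0.10 for pfkfb3 at 24 h. With WT limited to replicates 1 and 2 they were epas1b -0.15 and vhl -0.011 averaged, egln3 0.031 in WT at 24 h, and igfbp1a 0.048 in the 24 h interaction. With the replicate block they were egln3 0.17 in KO at 3 h, pfkfb3 0.0015 in KO at 24 h, and igfbp1a 0.0025 in the 24 h interaction. Over fits that left out 1 library, ML233 over DMSO ran from -0.038 to 0.56 for igfbp1b in WT at 24 h, -0.037 to 0.68 for ankrd37 and -0.99 to 0.19 for egln3 in KO at 3 h, and -0.11 to 0.69 for ankrd37 and -0.28 to 0.21 for pfkfb3 in KO at 24 h. The 24 h interaction ran from -0.045 to 0.76 for ankrd37 and -0.47 to 0.31 for igfbp1a. The causes of these changes were not tested, and the fits that left libraries out also hold fewer of them. No scaling moved the median of all genes by over 0.1. Depth limits epoa and ankrd37, with 17 to 61 and 10 to 103 counts per library.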
